A study of Mus musculus with 43 samples.

Results

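The 8 genes described here were those rows of a count table of 56980 mouse genes that stood nearly empty in either Cux2 knock-out (KO) or wild-type (WT) L2/3 neurons at embryonic day 19 (E19) or postnatal day 4 (P4), or that were lower in the Cux2 KO. They were Gm5948, Gm11645, Gm46432, Gm17669, Gm12987, Gm11814 and Gm14036, which the table lists as processed pseudogenes, and Gm49980, listed as a long non-coding RNA (lncRNA). Because they were chosen by the measured counts of Cux2 KO and WT libraries, every Cux2 KO against WT value of these genes below is a description, counts of genes past a threshold included, and no p-value is given for them. The other genotypes, stages and sexes were then followed for the same genes.

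Neurons were labelled by in utero electroporation of a GFP plasmid into the somatosensory cortex at E15.5, and GFP+ cells were sorted by FACS and sequenced as bulk RNA-seq, 1 library per sample, in 43 libraries on the C57BL/6JRccHsd strain. WT and Cux2 KO neurons came from females (F) and males (M) at E19 (4 libraries per sex and genotype) and at P4 (3 per sex and genotype), and WT neurons also from P7 (2 F and 3 M). Cux1 KO neurons came from F and M at E19 (4 each) and from M at P4 (2). Cux2 KO mice were germline homozygotes of the tm1.1Nieto allele (Cux2-/-), kept as heterozygous lines on the strain of the WT mice. The sources used here do not say whether WT animals were littermates of the KO, so genotype and breeding line cannot be told apart. Cux1 KO mice at E19 were germline homozygotes of the deltaC allele, which lacks the C-terminal part of the protein, whereas at P4 the animals were f/delta23 and only the electroporated cells, which received CRE with a CRE-dependent GFP, lost the remaining floxed copy. Stage and allele can therefore not be told apart for Cux1. E19 libraries were sequenced in a first round and P4 and P7 libraries in a second, so that E19 and later stages cannot be told apart from the round.

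A processed pseudogene is a copy of a messenger RNA that was reverse transcribed and inserted back into the genome, so that it lacks introns and usually its own promoter, and its sequence stays close to that of the coding gene it came from. Genes of ribosomal proteins, chromatin proteins and glycolytic enzymes, which are abundant in all cells, have left many such copies in the mouse genome. Short reads of such a family can match several copies, and a small difference in sequence then decides on which copy a read is placed.

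Each of the 7 pseudogenes aligned over its whole length to 1 coding gene. The best match of Gm5948 was Rplp0, a protein of the stalk of the large ribosomal subunit, at 85.3% identity. Gm11645 and Gm46432 matched Hmgb1, an abundant DNA-bending chromatin protein, at 93.9% and 96.1%. Gm17669, Gm12987 and Gm14036 matched Rpl29, another protein of the large ribosomal subunit, at 98.0%, 89.1% and 98.6%. Gm11814 matched Ldha, the muscle-type subunit of lactate dehydrogenase, at 88.7%. For Gm49980 the best coding match covered 46.7% of the transcript on the opposite strand, and no parent was assigned. All 4 parents lie on other chromosomes than their copies. Rplp0 and Hmgb1 are both on chromosome 5, which also carries Cux2 and Cux1, with Rplp0 6.29 Mb and Hmgb1 26.8 Mb from Cux2.

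Stretches of 120 bases show where a copy stands farthest from its parent, since the gap-free stretch with the most differences was taken. No stretch is given for Gm17669. Over all bases aligned without gaps, Gm5948 differed at 100 of 827, Gm11645 at 29 of 639 and Gm46432 at 25 of 638. Gm12987 differed at 27 of 484, Gm11814 at 43 of 929 and Gm14036 at 3 of 480. They are given from the GRCm39 genome in the direction of transcription of the copy, with the bases that differ from the aligned parent transcript in capitals. They lie at chr10:16645340-16645459 on the plus strand (Gm5948, 22 differences), chr2:143348348-143348467 on the minus strand (Gm11645, 12), chr13:84429307-84429426 on the minus strand (Gm46432, 8), chr4:136311583-136311702 on the minus strand (Gm12987, 9), chr4:10439292-10439411 on the minus strand (Gm11814, 10) and chr2:134646046-134646165 on the plus strand (Gm14036, 2). The last line is the Rpl29 transcript beside Gm14036, with the bases that differ in capitals again.
Gm5948: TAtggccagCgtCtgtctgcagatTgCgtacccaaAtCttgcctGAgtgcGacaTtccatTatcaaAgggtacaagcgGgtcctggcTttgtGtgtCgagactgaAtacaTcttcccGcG
Gm11645: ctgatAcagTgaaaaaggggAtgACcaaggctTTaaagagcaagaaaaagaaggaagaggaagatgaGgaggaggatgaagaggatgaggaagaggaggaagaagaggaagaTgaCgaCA
Gm46432: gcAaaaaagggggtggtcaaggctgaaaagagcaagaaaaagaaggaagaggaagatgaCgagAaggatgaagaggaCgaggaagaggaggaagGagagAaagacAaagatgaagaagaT
Gm12987: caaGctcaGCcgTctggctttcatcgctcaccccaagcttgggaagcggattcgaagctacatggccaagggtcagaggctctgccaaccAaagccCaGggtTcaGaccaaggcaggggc
Gm11814: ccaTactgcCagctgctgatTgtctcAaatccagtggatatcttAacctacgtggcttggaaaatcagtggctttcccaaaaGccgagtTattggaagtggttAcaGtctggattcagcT
Gm14036: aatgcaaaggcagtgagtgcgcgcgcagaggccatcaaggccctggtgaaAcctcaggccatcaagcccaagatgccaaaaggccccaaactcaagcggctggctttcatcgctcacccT
Rpl29: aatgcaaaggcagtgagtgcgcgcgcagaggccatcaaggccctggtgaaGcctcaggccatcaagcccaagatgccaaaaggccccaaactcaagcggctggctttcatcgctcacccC

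The stretch of Gm14036 holds 2 of the only 3 substitutions along its whole exon, so that most 60-base reads, the length sequenced here, would fit Gm14036 and another place in the genome equally well. Of its 421 possible 60-base windows, 361 occur identically elsewhere and the other 60 differ elsewhere by 1 base. At the other end, none of the 780 windows of Gm5948 occurs elsewhere and 86.5% differ from every other place by more than 3 bases. The remaining genes lie between, with identical matches for 129 of 590 windows of Gm11645, 125 of 579 of Gm46432, 164 of 383 of Gm17669, 49 of 430 of Gm12987, 97 of 870 of Gm11814 and 760 of 1390 of Gm49980. Values of all genes but Gm5948 are therefore uncertain by exact matches as to the copy that the reads came from. The study counted primary alignments, and how reads with several equal matches were placed is not given in the sources used here. For Gm5948 the windows show only that the reference genome holds no exact match elsewhere. Of its 780 windows, 105 lie within 2 or 3 mismatches of another place. Reads placed with mismatches were not examined, so its copy of origin is not settled either.

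**Figure D1:**
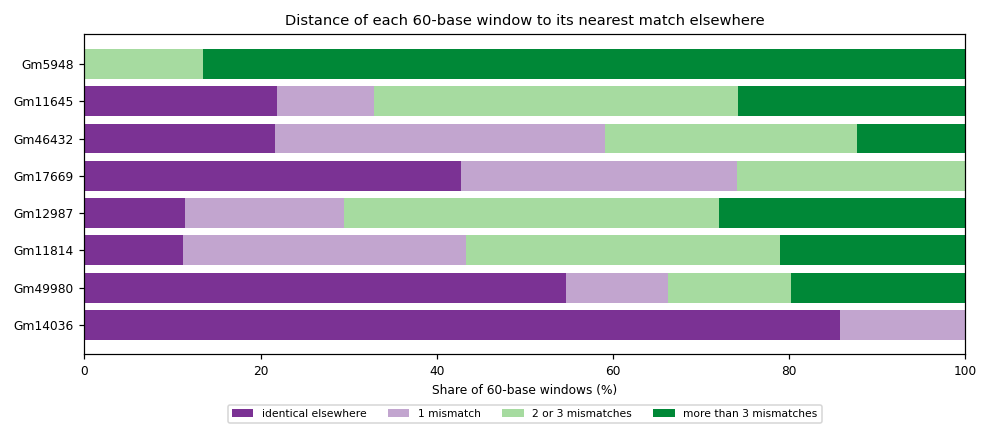
Share of the 60-base windows of each gene (horizontal axis, percent) by the number of mismatches to the nearest other place in the GRCm39 genome. Gm5948 has no window identical elsewhere, whereas 85.7% of the windows of Gm14036 are identical elsewhere.

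The 8 genes are scattered over the genome. Gm5948 (ENSMUSG00000112903, chr10:16644688-16645526, plus strand), Gm11645 (ENSMUSG00000080895, chr2:143348331-143348979, minus strand) and Gm11814 (ENSMUSG00000084215, chr4:10438815-10439743, minus strand) lie outside other genes. The others lie in introns or stand alone as a lncRNA. Gm46432 (ENSMUSG00000114827, chr13:84429298-84429935, minus strand) is in Tmem161b and Gm17669 (ENSMUSG00000091695, chr18:67695464-67695905, plus strand) is in Spire1, each on the strand opposite to its host. Gm12987 (ENSMUSG00000082711, chr4:136311483-136311971, minus strand) is in Kdm1a and Gm14036 (ENSMUSG00000082399, chr2:134645869-134646348, plus strand) is in Plcb1, each on the strand of its host. Gm49980 (ENSMUSG00000117465, chr18:30400111-30405186, plus strand) has 3 exon intervals outside other genes. No 2 of them are closer than 8.70 Mb, the distance between Gm11645 and Gm14036.

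The E19 libraries held 13321095 to 20715732 counts in total, the P4 libraries 19499125 to 60559585 and the P7 libraries 15312029 to 27633827, and no libraries of a group held the same counts. Expression is given as CPM after TMM normalization (counts scaled to a common library size, mean ± SD over libraries), and 3 counts in a library were taken as the limit that a count of 0 allows. Cux2 itself was still counted in the Cux2 KO, at 268 to 410 CPM against 330 to 507 in WT at E19, so gene counts do not check the deletion. Summed markers of upper-layer excitatory neurons (6 genes) ran from 1792 to 3319 CPM at E19 but from 366 to 645 at P4 and 193 to 255 at P7, below the summed astrocyte and radial glia markers (5 genes) at the later stages (2160 to 5106 and 5392 to 8487), which goes against the label of neurons alone after birth. None of the 6 excitatory markers was at 0 in a whole group. Fewer cells of a type and less RNA per cell cannot be told apart in such bulk samples. The part of these marker differences in the values below was not tested.

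A WT library and a Cux2 KO library stood apart from their groups before any comparison was made. WT F replicate 4 at E19 held 104 counts of Gm11645, 195 of Gm46432, 1 of Gm17669, 0 of Gm12987 and 152 of Gm14036, in or below the range of the Cux2 KO libraries of that stage, but 0 of Gm5948 like the other WT libraries. Since Cux2 was counted in the KO too, no value here checks the genotype of this library, which stands as labelled in every WT F mean at E19. Cux2 KO F replicate 1 at E19 held 117 counts of Gm17669 and 33 of Gm12987, closer to WT, and 118 of Gm5948 like the other Cux2 KO libraries. The fitted Cux2 KO F differences of E19 are therefore also given without one of these libraries, where that moved them by over 1.5 times.

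Gm5948, the Rplp0 copy, was present in all 14 Cux2 KO libraries and nearly absent from all WT ones. At E19 the F Cux2 KO libraries held 118, 121, 182 and 170 counts and the M ones 119, 135, 146 and 143, against 0 in each of the 8 WT libraries. At P4 the F Cux2 KO libraries held 270, 243 and 367 counts and the M ones 340, 188 and 252, against 0 in 5 WT libraries and 7 counts in WT M replicate 1. The groups did not overlap in either sex at either stage. Mean levels were 9.61 ± 1.89 CPM (F) and 8.99 ± 1.39 (M) at E19 (n = 4 each) and 7.47 ± 2.13 (F) and 7.97 ± 4.40 (M) at P4 (n = 3 each). Against WT groups at 0, the Cux2 KO was at least 52.3-fold higher at E19 F, at least 44.7-fold higher at E19 M and at least 70.6-fold higher at P4 F, with 3 counts per library as the floor. At P4 M the ratio of mean CPM was 185.

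In Cux1 KO, Gm5948 was counted at P4 and not at E19, stages that also differ in Cux1 allele and sequencing round. All 8 Cux1 KO libraries at E19 held 0 counts of Gm5948, while the 2 Cux1 KO M libraries at P4 held 238 and 319 (10.0 ± 3.01 CPM, n = 2). The fitted difference from WT M at P4 was 7.72 ± 2.11 on the log2 scale (SE) and did not pass edgeR's quasi-likelihood test with Benjamini-Hochberg adjustment (adjusted p = 0.135), in a comparison in which no gene of 19601 was called by edgeR. DESeq2 called 11.9% of all genes there, Gm5948 among them (adjusted p = 0.000610). WT libraries at P7 held 0 counts in all 5. Gm5948 was thus counted in the 14 Cux2 KO libraries, in the Cux1 KO M libraries of P4, and at 7 counts in 1 WT library, out of 43.

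**Figure D2:**
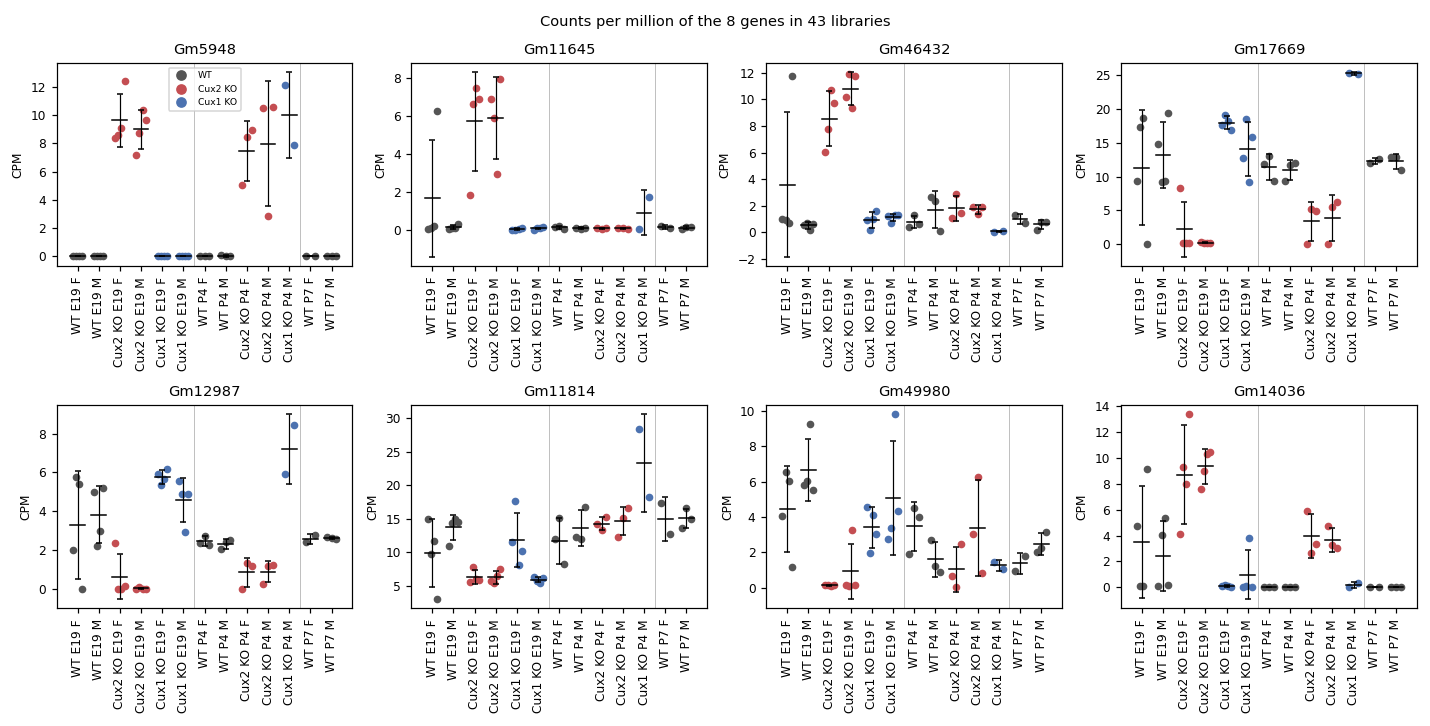
CPM of each of the 8 genes (vertical axes) in the 43 libraries by genotype, stage and sex (horizontal axes). Points are libraries, lines the mean and SD of a group. Gm5948 sits above 2 CPM in every Cux2 KO library and in the 2 Cux1 KO libraries at P4, and at 0 to 0.13 CPM elsewhere.

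The parent moved the other way from its copy. Rplp0 was at 441 ± 55.1 CPM in Cux2 KO F against 700 ± 47.5 in WT F at E19 and at 423 ± 33.5 against 733 ± 90.0 in M (log2 differences of -0.66 ± 0.10 and -0.81 ± 0.10, SE), and the groups did not overlap in either sex. At P4 the difference was -1.05 ± 0.17 in F, where groups did not overlap, and -0.21 ± 0.35 in M, where they did. The sum of Rplp0 and Gm5948 alone still differed by -0.63 ± 0.10 (F) and -0.78 ± 0.10 (M) at E19. Copies of Rplp0 that matched Gm5948 at 80% identity or more came to 7, Gm5948 included. Of these, Gm9625, Gm8730 and Gm14165 were past the thresholds in both sexes at E19, as was Gm5948, all higher in the Cux2 KO. For Gm9625, Gm8730 and Gm14165 the log2 differences were 0.80, 0.94 and 0.97 in F and 0.62, 0.78 and 0.84 in M. When Rplp0 and all 7 copies, Gm5948 included, were added, a sum chosen after the data were seen, the groups overlapped at E19. It came to 1249 ± 146 CPM in Cux2 KO F against 1145 ± 65.7 in WT F and to 1197 ± 88.5 against 1205 ± 141 in M. At P4 it was 663 ± 35.9 against 798 ± 101 in F, where groups did not overlap, and 708 ± 172 against 547 ± 106 in M, where they did.

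Gm11645, a copy of Hmgb1, was high at E19 in the Cux2 KO and low in every P4 group of either genotype. Its counts in Cux2 KO F were 26, 93, 150 and 94 and in M 114, 91, 41 and 117. In WT F they were 1, 1, 3 and 104 and in WT M 1, 1, 1 and 4. Groups overlapped in F through WT replicate 4 alone, and did not overlap in M. Levels were 5.69 ± 2.59 CPM against 1.64 ± 3.07 in F and 5.90 ± 2.15 against 0.12 ± 0.11 in M. The log2 difference was 1.79 ± 0.96 in F, 5.69 ± 0.66 without WT replicate 4, and 5.55 ± 0.54 in M. At P4 the WT and Cux2 KO libraries held 1 to 7 counts each, too few to pass the filter on low counts, and the switch of E19 was not detectable there.

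Gm46432, the other Hmgb1 copy, followed the same libraries at E19, on a base of some counts in WT. Cux2 KO F libraries held 85, 109, 215 and 133 counts and M ones 169, 183, 132 and 174, against 17, 15, 11 and 195 in WT F and 10, 9, 3 and 9 in WT M. Again only WT F replicate 4 reached the Cux2 KO range, and the M groups did not overlap. The log2 difference was 1.25 ± 0.70 in F, 3.26 ± 0.32 without WT replicate 4, and 4.34 ± 0.33 in M. At P4 it held 60, 83 and 61 counts in Cux2 KO F against 11, 50 and 15 in WT F, and 62, 88 and 46 in Cux2 KO M against 145, 92 and 6 in WT M. The groups overlapped in CPM in both sexes, in F by 1 library of each genotype (1.12 CPM as the lowest Cux2 KO and 1.29 as the highest WT library). The log2 difference was 1.25 ± 0.73 in F, from 0.74 to 1.78 with 1 library left out, and 0.03 ± 1.12 in M, from -0.53 to 0.50.

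In Cux1 KO Gm46432 did not pass the test in any comparison. Gm11645 was below the filter on low counts in each and was not tested by the main fits. At E19 the 8 Cux1 KO libraries held at most 2 counts of Gm11645, and 3 to 27 of Gm46432. Gm46432 differed from WT by -1.92 ± 0.85 in F and by 1.09 ± 0.47 in M on the log2 scale (edgeR adjusted p = 0.709 and 0.45), and the F difference was 0.09 without WT replicate 4. At P4 the Cux1 KO M libraries held 1 and 70 counts of Gm11645, which was below the filter, against 2 to 6 in WT M, and 1 and 5 of Gm46432. Gm46432 there differed by -4.27 ± 1.85 from WT M, whose replicate 3 held 6 counts (edgeR adjusted p = 0.29, DESeq2 adjusted p = 0.0769). Hmgb1 itself was lower in Cux2 KO at E19, at 65.7 ± 17.9 CPM against 116 ± 8.75 in M (log2 difference -0.84 ± 0.16) and 70.7 ± 6.50 against 94.5 ± 26.7 in F (-0.42 ± 0.19, with WT F replicate 4 at 54.6 CPM below the 3 other WT libraries at 104 to 111). The M groups of Hmgb1 did not overlap.

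The 3 Rpl29 copies differed in opposite directions. Gm17669 was lower in Cux2 KO at E19, with 117, 3, 4 and 2 counts in F and 6, 3, 2 and 4 in M, against 158, 276, 295 and 1 in WT F and 260, 118, 151 and 272 in WT M. Gm12987 followed it, with 33, 0, 0 and 2 counts in Cux2 KO F and 0, 1, 0 and 0 in M, against 34, 92, 86 and 0 in WT F and 87, 28, 48 and 73 in WT M. In M the groups of either gene did not overlap. In F they overlapped through WT replicate 4 for both genes, and for Gm12987 through Cux2 KO replicate 1 as well. The log2 differences were -5.72 ± 0.39 (Gm17669) and -7.30 ± 0.71 (Gm12987) in M and -2.38 ± 1.14 and -2.44 ± 1.18 in F, where they came to -5.87 and -6.05 without Cux2 KO replicate 1. For Gm12987 in M, 1 count over 4 Cux2 KO libraries gives a ratio to WT, of summed counts over summed library sizes, of 0.00422, with a 95% counting interval from 0.000106 to 0.0237.

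Gm14036 was the copy that stood high. It held 58, 131, 161 and 183 counts in Cux2 KO F and 126, 139, 145 and 155 in Cux2 KO M at E19, against 80, 2, 1 and 152 in WT F and 2, 52, 87 and 2 in WT M. WT libraries thus fell at 3 levels, near 0, at 52 to 87 counts and at 152 counts. WT F replicate 1 and WT M replicates 2 and 3, at 52 to 87 counts, also lay between the others for Gm17669 and Gm12987. Only the M groups of Gm14036 did not overlap (7.59 CPM as the lowest Cux2 KO and 5.37 as the highest WT library). The log2 difference was 1.30 ± 0.83 in F, 2.38 ± 0.86 without WT replicate 4, and 1.93 ± 0.74 in M. At P4 it held 315, 77 and 136 counts in Cux2 KO F and 153, 214 and 72 in M, against 1, 0 and 0 in WT F and 0 in all 3 WT M libraries. There the ratio of summed counts over summed library sizes in F was 388, resting on 1 count in WT, with a 95% counting interval from 69.4 to 15370, and the mean CPM in M was at least 61.2-fold higher. All 5 WT libraries at P7 held 0.

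Gm17669 and Gm12987 were lower at P4 too, with a spread among the Cux2 KO libraries. Gm17669 held 1, 149 and 202 counts in Cux2 KO F and 0, 362 and 148 in M, against 332, 506 and 212 in WT F and 504, 450 and 766 in WT M. Gm12987 held 0, 38 and 49 in Cux2 KO F and 8, 76 and 29 in M, against 66, 106 and 51 in WT F and 110, 93 and 160 in WT M. In each sex 1 Cux2 KO library was near 0 and the 2 others lay between it and WT, and after normalization no group overlapped. The log2 differences were -1.75 ± 1.23 and -1.45 ± 1.41 (Gm17669, F and M) and -1.53 ± 1.40 and -1.36 ± 0.77 (Gm12987). Without Cux2 KO replicate 1 of each sex, they were -1.15 and -0.86 (Gm17669) and -0.93 and -0.92 (Gm12987).

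The reads of the 3 copies were also compared as a share within each library, which does not depend on depth. The share of Gm14036 among the counts of Gm14036, Gm17669 and Gm12987, not corrected for length, was 95.5% to 98.6% in 7 of 8 Cux2 KO libraries at E19 and 27.9% in Cux2 KO F replicate 1. Among the 8 WT libraries at E19 it was 0.576% or less in 4, 26.3%, 29.4% and 30.4% in 3 and 99.3% in F replicate 4. Of the 8 Cux1 KO libraries, 7 were at 0.756% or less and M replicate 3 was at 23.8%. At P4 the Cux2 KO libraries stood at 99.7%, 29.2% and 35.1% in F and at 95.0%, 32.8% and 28.9% in M, all above the WT libraries at 0 to 0.251%. Over all 43 libraries the share was at most 1.02% in 24, from 23.8% to 35.1% in 9 and at least 95.0% in 10, with no library between. Exact 95% binomial intervals, which cover counting error only, were 18.8% to 29.5% for the lowest of the middle values and 30.4% to 40.1% for the highest.

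**Figure D3:**
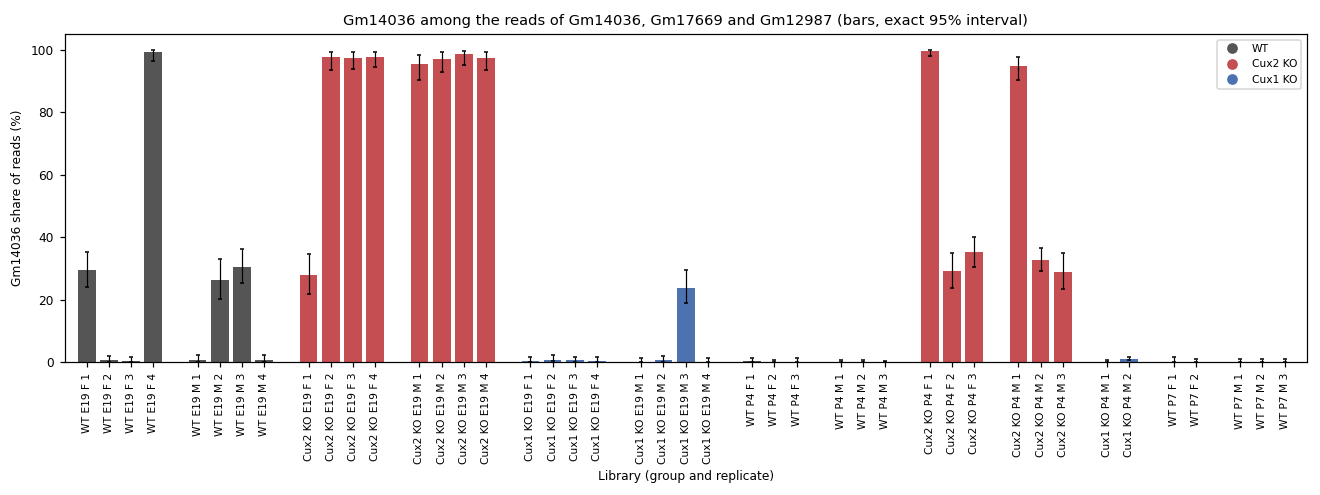
Share of Gm14036 among the counts of Gm14036, Gm17669 and Gm12987 (vertical axis, percent) in each of the 43 libraries (horizontal axis), with exact 95% binomial intervals. The shares lie at 0 to 1.02%, at 23.8% to 35.1% or at 95.0% and above.

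Rpl29 itself moved with the lower copies. At E19 it held 345, 35, 38 and 42 counts in Cux2 KO F and 42, 45, 12 and 15 in M, against 492, 838, 907 and 33 in WT F and 843, 410, 501 and 858 in WT M. The same F libraries stood apart as for its copies, and the M groups did not overlap (1.83 ± 1.05 CPM against 43.1 ± 14.4, log2 difference -4.55 ± 0.36). The F difference was -2.15 ± 0.86, and -3.85 without Cux2 KO replicate 1. When the counts of Rpl29, the 3 copies and all other copies at 90% identity were added, 60 genes in all, little difference was left, with 0.16 ± 0.12 in F and 0.05 ± 0.10 in M at E19 and -0.08 ± 0.10 and 0.02 ± 0.13 at P4. The sum in M at E19 was 206 ± 9.13 CPM in Cux2 KO and 195 ± 24.8 in WT. The same sum over the Hmgb1 family, 77 genes, differed by -0.12 and -0.39 at E19 and by -0.34 and 0.12 at P4 (F and M).

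**Figure D4:**
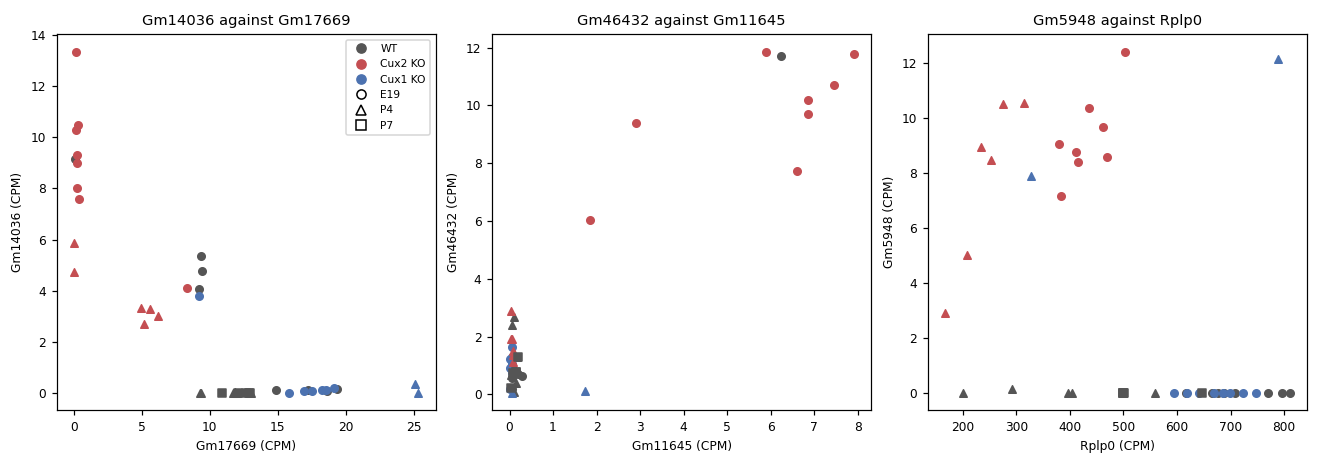
CPM of pairs of related genes in the 43 libraries (both axes in CPM), coloured by genotype and shaped by stage. The libraries with 7.59 to 13.4 CPM of Gm14036 held 0.0601 to 0.361 CPM of Gm17669, while some libraries with less Gm14036 held both. Gm46432 and Gm11645 were high in the same E19 libraries, and Gm5948 was counted at Rplp0 levels that WT libraries of P4 also had.

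Of the 3389 bases of the Rpl29 transcript, only those that every compared copy covers could be searched, and Gm14036 aligned to 480. Among them, 1 position separated Gm14036 and the 2 genes whose pattern was most like it from Rpl29, Gm17669, Gm12987 and Gm13213. The former carry T and the latter C, written C557T with positions counted from 1 at the start of the Rpl29 transcript, in the coding sequence at chr9:106308465 (GRCm39, plus strand). It is the last base of the Gm14036 and Rpl29 stretches printed above. Of 110 copies, 31 carry T and 75 carry C there. In Cux2 KO M at E19, 10 copies with C were tested, 5 higher and 5 lower than in WT, from -7.30 (Gm12987) to 0.31, and 16 with T, 10 higher and 6 lower, from -1.06 (Gm10709) to 1.93 (Gm14036). In F at E19 the copies with C were 3 higher and 7 lower, and those with T 12 and 4. At P4 they were 5 and 6 (C) and 9 and 7 (T) in F, and 3 and 7 (C) and 10 and 7 (T) in M. The position was found from these genes, and both kinds of copy held some that were higher and some that were lower.

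For Rplp0, 5 positions (T156C, G222C, T384C, A474G and A868G, counted from 1 at the start of the 1328-base transcript) set apart Gm5948, Gm8730 and Gm14165 from the parent. Of its 7 copies, 6, 5, 3, 6 and 6 carry the second base. For Hmgb1, A67G was shared by Gm11645, Gm46432 and Gm5853, as by 116 of 125 copies. These positions were also found from the genes themselves and are not tested.

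Gm11814, the Ldha copy, was the member with the smallest fitted difference at E19 in either sex. It held 77, 110, 120 and 80 counts in Cux2 KO F and 95, 82, 91 and 110 in M at E19, against 252, 155, 186 and 50 in WT F and 191, 184, 242 and 204 in WT M. Only WT F replicate 4 lay below the Cux2 KO libraries, and the M groups did not overlap (6.24 ± 0.94 CPM against 13.7 ± 1.86, log2 difference -1.15 ± 0.19). The F difference was -0.65 ± 0.36, -0.95 ± 0.22 without WT replicate 4 and -0.38 without WT replicate 1. At P4 it was 0.30 ± 0.26 in F and 0.15 ± 0.25 in M, and the groups overlapped. Ldha differed by -0.01 ± 0.10 in M and by 0.24 ± 0.19 in F at E19, where its groups overlapped, whereas those of the copy did not in M.

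By the main edgeR fits of 2 groups, with the filter on low counts, Gm11814 was also the single member called in a comparison that did not choose it. In Cux1 KO M at E19 it held 114, 92, 89 and 100 counts, below all 4 WT M libraries, where the groups of 6.16% of all genes did not overlap (5.88 ± 0.40 CPM against 13.7 ± 1.86, log2 difference -1.24 ± 0.16, edgeR adjusted p = 0.0187). The WT libraries are shared with the Cux2 comparison that chose the gene, so that the values of the 2 comparisons are not independent. In Cux1 KO F it held 174, 283, 147 and 168 counts, in the range of WT F (0.26 ± 0.36, adjusted p = 0.905). With all E19 groups in 1 fit the M difference no longer passed (adjusted p = 0.225), and leaving out any of Cux1 KO replicates 2, 3 and 4 or WT replicates 2 and 3 took it to at most 0.0745. At P4 the Cux1 KO M libraries stood above WT, at 23.3 ± 7.25 CPM against 13.6 ± 2.66 (0.77 ± 0.41, adjusted p = 0.337). At E19, summed oligodendrocyte markers were 354 to 547 CPM in Cux1 KO M against 556 to 700 in WT M. Summed microglia markers were 18.7 to 28.2 against 33.1 to 43.7. All other marker sums overlapped in this comparison at E19. The part of these in the difference of Gm11814 was not tested.

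Gm49980, the lncRNA, was nearly silent in Cux2 KO at E19 with 1 exception. Its counts were 2 in each Cux2 KO F library and 3, 2, 46 and 2 in M, against 68, 105, 96 and 20 in WT F and 102, 77, 150 and 78 in WT M. No group overlapped, even with Cux2 KO M replicate 3 at 46 counts and WT F replicate 4 at 20. The log2 difference was -5.02 ± 0.60 in F and -2.89 ± 0.77 in M, and -5.41 in M without Cux2 KO replicate 3. At P4 the counts were 35, 1 and 102 in Cux2 KO F and 99, 406 and 20 in M, against 54, 176 and 90 in WT F and 147, 47 and 56 in WT M, and the groups overlapped. Cux1 KO libraries at E19 stayed within reach of WT, with log2 differences of -0.39 ± 0.42 in F and -0.41 ± 0.36 in M (edgeR adjusted p = 0.872 and 0.746).

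**Figure D5:**
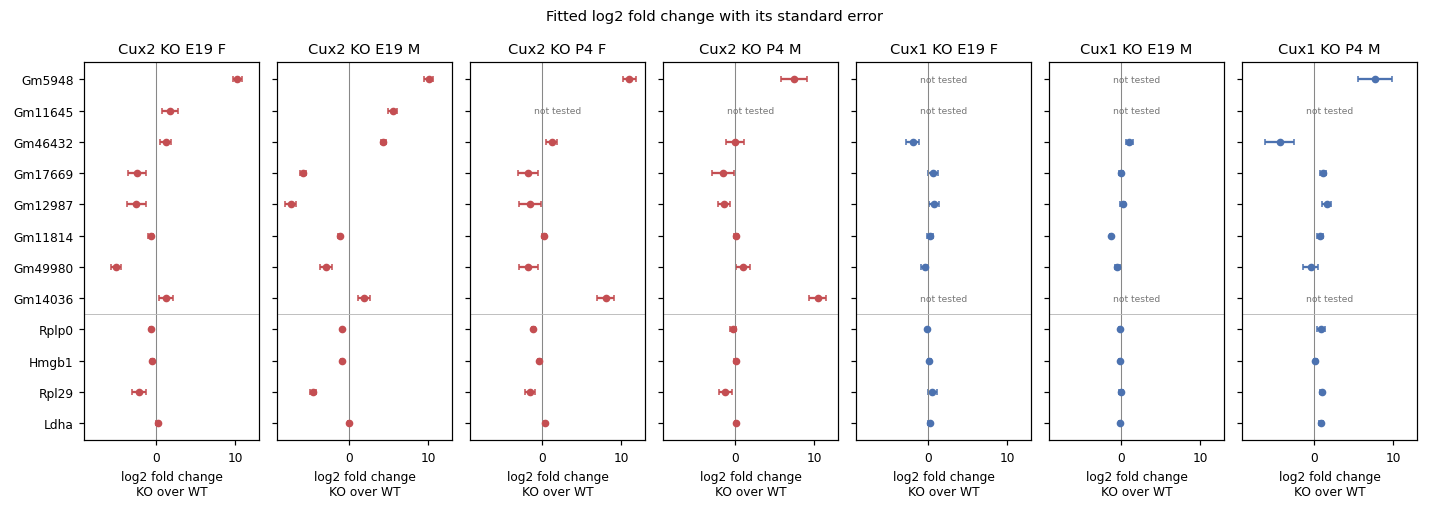
Fitted log2 fold change (horizontal axes, KO over WT) of the 8 genes and their 4 parents in the 7 comparisons of KO with WT, with bars for the standard error. Gm5948 is at 10.26 and 10.08 in Cux2 KO at E19, whereas the members tested in Cux1 KO at E19 lie between -1.92 and 1.09.

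Counted by the thresholds of the study (adjusted p under 0.05 with a log2 difference beyond 0.5 in size for E19 and beyond 1 for the later stages), 2 of 8 members were past them in Cux2 KO F at E19, Gm5948 above and Gm49980 below, where 0.0287% of 17436 genes were. Without WT F replicate 4 there were 4, with Gm11645 and Gm46432 added, beside 0.0789% of genes. In M there were 6 of 8, with Gm5948, Gm11645 and Gm46432 higher and Gm17669, Gm12987 and Gm11814 lower, beside 0.121% of 17332 genes. The rule used these contrasts, and nothing is read from the counts. With 4 members above and 4 below WT in F, the median log2 difference of the members was 0.30 in F, 0.72 without WT replicate 4, and 0.39 in M, beside 0.01 and -0.01 over all genes.

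At P4 none of the 7 members that passed the filter was past the thresholds by edgeR in either sex, nor was any gene (0.0% of 19538 in F and of 19720 in M), with 2 members at an unadjusted p under 0.05 in each sex. DESeq2 placed 2 members past them in each sex, both higher, beside 0.612% and 1.23% of genes. With both sexes in 1 fit edgeR also gave 2, Gm5948 and Gm14036, beside 0.0503% of genes. Members whose groups did not overlap were 2 in F and 8 in M at E19 (3.14% and 4.4% of genes) and 4 in each sex at P4 (15.7% and 12.6%). Gm11645 was the member that the filter left out at P4. Summed interneuron markers at P4 were 248 to 481 CPM in Cux2 KO F against 513 to 1014 in WT F. Excitatory upper-layer markers were 366 to 421 in Cux2 KO F against 463 to 499 in WT F. Summed ciliated ependymal markers were 125 to 214 in Cux2 KO M against 24.4 to 67.8 in WT M. Microglia markers were 32.2 to 72.6 in Cux2 KO M against 19.7 to 27.4 in WT M. All other marker sums overlapped between the genotypes at P4. The part of these in the P4 values was not tested.

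In Cux1 KO 1 member passed the test at E19. None of the 5 members tested in F passed (0.0576% of 17376 genes did), with 1 at an unadjusted p under 0.05 and none by DESeq2, and 1 of 5 passed in M (0.0979% of 17362), the Gm11814 described above. Gm5948, Gm11645 and Gm14036 were below the filter in both. Gm17669 and Gm12987 differed by 0.66 ± 0.61 and 0.80 ± 0.63 in F (edgeR adjusted p = 0.843 and 0.821) and by 0.07 ± 0.27 and 0.23 ± 0.31 in M (0.955 and 0.848), and Rpl29 by 0.60 ± 0.54 and 0.05 ± 0.24. Gm14036 held 0 to 3 counts in 7 of the 8 Cux1 KO libraries and 62 in M replicate 3, the library at 23.8% in the plot of shares.

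In Cux1 KO M at P4, with 2 libraries against 3, none of 6 members passed by edgeR, which called 0.0% of 19601 genes. At an unadjusted p under 0.05 there were 3 members, Gm5948, Gm17669 and Gm12987, all higher in the Cux1 KO, and DESeq2 called the same 3 beside 11.9% of genes. Gm17669 stood at 25.2 ± 0.17 CPM against 11.0 ± 1.47 in WT M (log2 difference 1.19 ± 0.35, edgeR adjusted p = 0.156) and Gm12987 at 7.19 ± 1.80 against 2.32 ± 0.25 (1.62 ± 0.60, adjusted p = 0.225). Their groups did not overlap, as for 41.4% of genes. Rpl29 was at 73.8 ± 3.26 CPM against 36.5 ± 2.82 (1.00 ± 0.20, adjusted p = 0.0884). Gm14036 held 0 and 14 counts, against 0 in the 3 WT M libraries. Summed markers of other cell types moved with this comparison. Cux1 KO M libraries stood at 34.1 to 114 CPM against 295 to 479 in WT M for interneurons (5 genes), at 0 to 32.8 against 104 to 203 for endothelial cells (4 genes) and at 0.0510 to 0.0987 against 24.4 to 67.8 for ciliated ependymal cells (4 genes, Foxj1 at 0 in the Cux1 KO). Oligodendrocyte and microglia markers (5 genes each) were lower as well and astrocyte and radial glia markers higher, without overlap. Their part in these values was not tested.

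No member passed the test by sex or between P4 and P7 in WT neurons, in libraries of which those of E19 and P4 had helped to choose the members. Between WT F and M at E19, 0 of 6 members passed (0.0461% of 17344 genes), with 1 at an unadjusted p under 0.05, Gm46432, whose difference of 2.77 ± 0.89 (adjusted p = 0.992) was 0.74 without WT F replicate 4. At P4 it was 0 of 5 (0.0% of 19213 genes) and at P7 0 of 5 (0.0247% of 20271), with none at an unadjusted p under 0.05 in either. P7 against P4 gave 0 of 5 in F (0.0% of 19905 genes) and 0 of 5 in M (0.0% of 19522), again with none unadjusted. DESeq2 called none of the members in any of these comparisons. Gm17669 was at 12.3 ± 0.43 CPM in F and 12.2 ± 1.14 in M at P7, beside 11.4 ± 1.88 and 11.0 ± 1.47 at P4.

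The genes most alike to the members over the 43 libraries were largely copies of the same parents. Likeness was measured as Pearson's r of log2 CPM after subtracting stage means, over 17001 genes with a mean CPM of at least 1, and is a description since libraries share depth and genotype. Gm17669 and Gm12987 were most like Rpl29 (r = 0.976 and 0.973) and then Gm13213 (0.898 and 0.890), and Gm14036 was most like Gm8210 (0.972) and Gm15454 (0.968), all of the Rpl29 family. Gm5948 was most like Gm8730 (0.884) and Gm14165 (0.875), copies of Rplp0. Gm11645 was most like Ldhb-ps (0.854) and the Hmgb1 copy Gm5853 (0.819), and Gm46432 like Prnp (0.677), the prion protein gene on chromosome 2, and Gm5853 (0.671). For Gm49980 they were Gm12261 (0.753) and Hmgb1-ps1 (0.717), 2 copies of Hmgb1, and for Gm11814 Gm5855 (0.667) and Gm8483 (0.663), which are not copies of any parent here.

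Gm8210 showed the Gm14036 pattern with more counts. It was at 44.9 ± 2.33 CPM in Cux2 KO M and 13.8 ± 13.4 in WT M at E19, and at 15.5 ± 6.62 and 15.1 ± 4.27 in Cux2 KO F and M against 0.265 ± 0.15 and 0.241 ± 0.06 in WT at P4. Its groups did not overlap in M at E19 or in either sex at P4. Cux1 KO at P4 stood at 0.612 ± 0.22 CPM.

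Genes around the members and other pseudogenes were counted by the same thresholds. Of 248 genes within 1 Mb of a member, 97 (F) and 96 (M) were tested at E19 and 113 and 112 at P4, and edgeR placed 0 past them in each comparison, with 9, 11, 12 and 2 at an unadjusted p under 0.05. DESeq2 gave 2, 1, 0 and 0. Of the parents and copies at 90% identity, 0 of 46 were past them in F and 3 of 42 in M at E19, namely Rpl29, Rplp0 and Gm4587, an Hmgb1 copy on chromosome 7 that was higher (1.75 ± 0.64 CPM against 0.144 ± 0.05, log2 difference 3.48 ± 0.51). At P4 there were 0 of 48 and 0 of 50. By DESeq2 these numbers were 1, 8, 4 and 3, and at an unadjusted p under 0.05 by edgeR 7, 16, 9 and 3. Of the other processed pseudogenes, 3 of 2301 were past the thresholds in F and 7 of 2275 in M at E19, and 0 of 2642 and 0 of 2752 at P4 (62 and 35 unadjusted, 3 and 7 by DESeq2).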

How the data were processed

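RNA was sequenced from 43 libraries of sorted GFP+ cells, without molecular identifiers. The authors used HISAT2 to place single-end reads of 60 bases on GRCm39 (Y chromosome masked for females, its pseudoautosomal regions for males), thinned duplicates above a threshold of 50, and assigned primary alignments to genes of Ensembl 108 by featureCounts. Deposited values are raw counts per gene and library, without normalization. Strand and the placing of reads with several equal matches are not given in the sources used here. DESeq and DESeq2 are also named in the submitters' processing notes.

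Groups were taken from the labels. Each comparison of 2 groups was fitted on the whole table with edgeR 4.0.16 (R 4.3.3, TMM, filterByExpr, quasi-likelihood test, Benjamini-Hochberg adjustment) and only the libraries of those groups. The standard error is the log2 fold change divided by the root of F. The members, lists and comparisons were chosen with earlier results of these data known. Named genes were the members, Cux1 and Cux2, the parents, those copies, neighbours and family sums that passed the thresholds, and the 2 genes most alike to each member. Gm10709, Gm13213 and the other genes named at the C557T position were chosen after their values were seen, as was the requirement that a parent cover 80% of the member. Parents, copies and 60-base windows were found with BLAST+ 2.17.0 on GRCm39 and GENCODE M39, which holds 56236 of the 56980 identifiers. Copies had at least 90% identity over 80% of the length. The fits were tested on simulated data.

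Alternatives were DESeq2 1.42.0, edgeR with the DESeq2 size factors, no filter, a single fit over all groups of a stage or over both sexes, a replicate block, copies at 80% identity, a window of 250 kb, and leaving out each library in turn. No label says that libraries came from separate animals, and p-values measure the spread between these libraries, which may be in part technical. Counting intervals and floors cover counting error only.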

Additional observations from a re-analysis of the deposited data

Results flagged for a closer look

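Dixon's criterion was applied to 68 sets, each of 1 gene in 1 E19 group of 4 libraries. In 16 of them 1 library stood apart from the others. Chance gives about 1 in 20 for a single set. The sets share libraries and related genes, so 16 of 68 cannot be compared with that rate. WT F replicate 4 was apart for Gm11645 (6.25 CPM, others 0.0595 to 0.189), Gm46432 (11.7 CPM, others 0.694 to 1.01) and Hmgb1 (54.6 CPM, others 104 to 111). Cux2 KO F replicate 1 was apart for Gm11645 (1.85 CPM, others 6.61 to 7.46), Gm17669 (8.31 CPM, others 0.146 to 0.213), Gm12987 (2.34 CPM, others 0 to 0.146) and Rpl29 (24.5 CPM, others 1.89 to 3.07). Cux2 KO F replicate 4 was apart for Gm5948 (12.4 CPM, others 8.38 to 9.06) and replicate 3 for Gm49980, at 2 counts like the others (0.0995 CPM, others 0.142 to 0.146).

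In Cux2 KO M, replicate 3 was apart for Gm49980 (3.27 CPM, others 0.130 to 0.181) and replicate 2 for Gm12987 by 1 count (0.0648 CPM, others 0). In WT M, replicate 1 was apart for Gm11814 (10.9 CPM, others 14.4 to 14.9), replicate 3 for Gm49980 (9.25 CPM, others 5.55 to 6.03) and replicate 4 for Gm11645 by 4 counts (0.285 CPM, others 0.0572 to 0.0783). In Cux1 KO M, replicate 3 was apart for Gm14036 (3.80 CPM, others 0 to 0.122) and replicate 2 for Gm46432 (0.733 CPM, others 1.21 to 1.29).

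Gm11814 was also noted because the Cux1 KO differed from WT M in opposite directions, by -7.82 CPM at E19 and by 9.69 CPM at P4, with every Cux1 KO library below WT at E19 and above it at P4. The difference between the stages was not tested, and stage, sequencing round and Cux1 allele cannot be told apart.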

How the results depend on the processing

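Of the recomputed counts of calls, 46 moved by over 1.5 times and 225 did not. For the members, both sexes in 1 fit gave 2 for Cux2 KO M at E19 (6 within the sex) and 2 at P4 (0 in F and M), and DESeq2 gave 2 in each sex at P4. In Cux1 KO, no filter gave 2 in F at E19 (main count 0), all E19 groups in 1 fit gave 0 in M (main count 1), and at P4 DESeq2 gave 3 and all groups 2 (main count 0). The cause was not tested.

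For parents and copies at E19 F (main count 0), DESeq2, its size factors, no filter and all groups each gave 1, both sexes 2 and copies at 80% identity 3. At E19 M (main count 3) DESeq2 and no filter gave 8 and copies at 80% identity 6. At P4 (main count 0) DESeq2 gave 4 in F and 3 in M, all groups 1 in each and both sexes 2. For neighbours at E19 F (main count 0), DESeq2 gave 2 and no filter, all groups and the replicate block 1 each, and in M DESeq2 gave 1. For other processed pseudogenes DESeq2 and no filter each gave 7 in F (main count 3) and 16 and 13 in M (main count 7), and DESeq2 gave 3 and 7 at P4 (main count 0). For family sums DESeq2 gave 1 in F at E19 and at P4 (main count 0).

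Leaving out each library gave 1 to 4 members in Cux2 KO F at E19 (1 without Cux2 KO replicate 3, 4 without WT replicate 4), 5 to 6 in M, 0 to 1 in Cux1 KO M, and 0 to 2 parents and copies in F. Some values changed sign. Gm46432 in Cux1 KO F at E19 (-1.92 with all libraries) ranged from -2.30 to 0.0932, the latter without WT replicate 4. In Cux2 KO M at P4 Gm46432 ranged from -0.53 to 0.50. In Cux1 KO at E19, Gm17669 ranged from -0.0978 to 0.31 in M and Gm11814 from -0.0462 to 0.53 in F. Gm49980 in Cux1 KO M at P4 ranged from -0.65 to 0.27. Rplp0 in Cux2 KO M at P4 ranged from -0.44 to 0.0870 and Ldha in Cux2 KO M at E19 from -0.0601 to 0.0652. Ldha there was also 0.00111 by DESeq2, 0.00201 with its size factors, 0.00510 without a filter and 0.117 with both sexes. Hmgb1 in Cux2 KO M at P4 was -0.0947 with both sexes.

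Replicate numbers were not taken to pair the libraries, since in no comparison with at least 3 numbers did every pair correlate over 0.1. In WT F against M at P7, with 2 numbers, both pairs did (r = 0.292 and 0.394). There the replicate block took the genes past the thresholds from 5 to 0. The replicate block left 2 and 5 members in Cux2 KO F and M at E19, and 1 in Cux1 KO M. The share of all genes past the thresholds ranged from 0.0282% to 0.153% in Cux2 KO F and from 0.0577% to 0.313% in M at E19. A count of 0 in a library allows up to 0.225 CPM at E19 and 0.154 CPM at P4.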
